A study of Mus musculus with 6 samples.

Results

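Interferon-induced genes were followed in the mammary gland of Rac1-/- and WT mice at involution day 2, the second day after pups stop suckling. The list holds 39 genes that are known targets of interferons. Its members were taken by gene name, but with earlier results of these data known. A gene is represented by 1 probe set, namely whichever had the highest mean over the 6 arrays out of those naming that gene alone. This gave a value to 37 of the 39, out of 18194 genes measured in all. The only probe set found here for Isg15 also names another gene, and Ifi44 has no probe set in the annotation used here, so neither has a value. The 3 mice called Rac1-/- (Rac1 null in the labels, Nas496, Nas497 and Nas518) were Rac1fx/fxYFP;WAPiCreTg/• females, in which Cre driven by the promoter of whey acidic protein, a milk protein, removes floxed Rac1 from luminal epithelial cells. The 3 WT mice (wildtype in the labels, Nas478, Nas483 and Nas484) carried the same floxed Rac1 alleles and the same YFP reporter without Cre. Cre and the loss of Rac1 thus came together and cannot be told apart on these arrays, and the other cells of a Rac1-/- gland, among them stromal and immune cells, keep the gene. The groups were matched for age, each mouse gave RNA from inguinal gland 4 and 1 array, and no processing batch is named. The study calls the WT mice littermates, but no source used here ties single mice to a litter. RNA came from the whole gland, so fewer cells of a type and less RNA per cell cannot be told apart.

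Interferons are cytokines that cells release when they sense viral or cellular nucleic acids. Type I interferons act through the Ifnar receptor and the Jak kinases on Stat2 and Irf9, which bind a promoter element called the interferon-stimulated response element, while interferon gamma acts through its own receptor and a different Stat element. The genes that these elements switch on encode RNA sensors, proteins that block viral RNA or its translation, GTPases that attack the compartments of microbes, chemokines for T cells, and the machinery that prepares peptides for display. In the mammary gland, involution is a time of epithelial cell death and clearance of dead cells, in which epithelium and immune cells are both present to respond to interferon.

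The promoters of the listed genes were read from RefSeq (GRCm38.p6), from 250 bases before to 50 bases after the start of the gene, on both strands. The core of the response element was searched as GAAANNGAA, and 20 of the 31 listed genes with a promoter entry held at least 1 match (64.5%), against 9.76% of the 27025 genes in the promoter table. The element of the interferon gamma pathway was searched as TTCNNNGAA, which is its own reverse complement, and 9 of the 31 held it (29%), against 9.55% of all genes. A match is a description of the letters in this window and not a measured binding site. The last 160 bases before the start are printed for 5 genes, with matches to GAAANNGAA on either strand in capitals. Ifit1 and Ifit3 are shown as members of 1 family with different values below, Rsad2 and Oas1a as genes whose groups did not overlap, and Irgm1 as the gene whose groups lay apart in the opposite direction. Ifit1 lies at chr19:34640729-34640888 on the plus strand, Ifit3 at chr19:34583369-34583528 on the plus strand, Rsad2 at chr12:26456453-26456612 on the minus strand, Oas1a at chr5:120907526-120907685 on the minus strand and Irgm1 at chr11:48871421-48871580 on the minus strand. All are written 5′ to 3′ in the direction of the gene.
Ifit1: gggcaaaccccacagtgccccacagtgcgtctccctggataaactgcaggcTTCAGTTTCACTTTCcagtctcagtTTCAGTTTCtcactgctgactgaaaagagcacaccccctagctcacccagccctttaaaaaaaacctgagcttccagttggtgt
Ifit3: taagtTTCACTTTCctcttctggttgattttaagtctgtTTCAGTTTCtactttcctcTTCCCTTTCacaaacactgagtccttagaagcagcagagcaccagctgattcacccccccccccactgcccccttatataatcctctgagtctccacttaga
Rsad2: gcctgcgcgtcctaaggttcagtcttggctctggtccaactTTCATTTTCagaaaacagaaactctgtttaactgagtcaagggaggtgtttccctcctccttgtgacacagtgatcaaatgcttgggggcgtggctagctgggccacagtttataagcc
Oas1a: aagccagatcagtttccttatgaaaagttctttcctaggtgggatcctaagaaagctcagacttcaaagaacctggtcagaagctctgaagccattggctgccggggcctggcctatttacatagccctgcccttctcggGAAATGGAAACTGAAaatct
Irgm1: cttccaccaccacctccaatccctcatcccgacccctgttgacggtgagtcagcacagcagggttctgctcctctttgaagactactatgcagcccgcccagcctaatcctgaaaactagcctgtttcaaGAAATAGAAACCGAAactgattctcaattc
Matches can overlap, and the long run of capitals in Ifit1, Oas1a and Irgm1 holds 2 overlapping matches. Oas1a and Irgm1 each carried this pair within 30 bases of the start of the gene, and in these data they lay on opposite sides of 0. The 18 members with a match and a value had a median log2 fold change of 0.45 (range -0.96 to 1.31), and the 11 with a promoter entry, a value and no match had a median of 0.40 (range -1.46 to 0.91).

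The values on each array are linear intensities, here quantile normalized and given as log2 intensity. As deposited, the interquartile range of log2 intensity was 1.23 on the narrowest array and 2.85 on the widest. On a first principal component with 44.3% of the variance, the Rac1-/- mouse Nas497 (119.2) and the WT mouse Nas484 (64.5) had the highest scores. Nas518 lay between them and the rest at 4.7, followed by Nas496 (-36.2), Nas483 (-74.4) and Nas478 (-77.8). As a measure of RNA integrity, the 3′ minus 5′ signal of the actin control probe sets was taken in log2 units. It was -0.193 to 0.066 for WT arrays against -1.21 to -0.326 for Rac1-/- arrays, with no overlap. The same difference for the Gapdh control probe sets was -0.033 to 0.12 for WT and -0.0402 to 0.242 for Rac1-/- arrays, and overlapped. The 2 controls thus did not separate the genotypes alike. For Rac1 itself, the probe set with the highest mean read 9.31, 9.5 and 8.97 (WT) against 9.51, 9.01 and 9.84 (Rac1-/-) in log2 intensity, and overlapped between the genotypes. Another Rac1 probe set read 8.74, 9.0 and 9.89 (WT) against 8.77, 8.34 and 8.14 (Rac1-/-), a lower mean with an overlap through Nas478 and Nas496, and the dimmest read 4.95, 3.68 and 2.24 against 3.41, 3.31 and 0, the last at the floor. Their position relative to the floxed exon is not known here. The markers of luminal epithelium and milk, such as Csn2 and Krt18, were above the median gene for all 9 genes of that list, as the labelled tissue requires.

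Most interferon-induced genes had a higher mean in Rac1-/- than in WT glands, but the differences were small and none passed the test across all genes. Of the 37 members, 28 had a log2 fold change (Rac1-/- minus WT) above 0 and 9 below 0, that is 75.7% above 0 against 53.9% of all genes. The median log2 fold change was 0.41, and that of all genes was 0.06. No member passed an adjusted p of 0.05 in limma with Benjamini-Hochberg adjustment over the 18194 genes, where the share of all genes passing was 0%, and the adjusted p of members ran from 0.946 to 0.997. Without adjustment, Ifit3 was the 1 member with p under 0.05 and a higher mean (2.23% of all genes) and no member had p under 0.05 and a lower mean (1.82% of all genes). In 4 of the 37 members, Ifit3, Oas1a, Dhx58 and Rsad2, every Rac1-/- value was above every WT value, where 5.41% of all genes did so. In 1, Irgm1, every Rac1-/- value was below every WT value, where 4.2% did so. Against these shares, nothing particular to the list is read from its counts, and an exact permutation test of 3 against 3 cannot give a two-sided p below 0.1.

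The balance above 0 depended on how the arrays were scaled. When each array was scaled to a common median in place of quantile normalization, the median of all genes moved by -0.18 to -0.12, that of the members came to -0.019, and 18 of the 37 were above 0, against 45.1% of all genes. The 11 members that turned from above to below 0 were Bst2, Gbp2, Gbp3, Ifit1, Irf1, Irf7, Parp14, Rsad2, Stat2, Trim30a and Xaf1, and Mx2 turned the other way. In that scaling 2 members lay apart with higher values in Rac1-/- glands, where 4.5% of all genes did so, and 1 with lower values, where 6.65% did so. With no scaling beyond that of the deposited values the members' median was 0.45 and that of all genes 0.35, with 65.6% of all genes above 0. The members' median thus lay above that of all genes by 0.35 with quantile normalization and by 0.10 in either of the other scalings. Under every alternative that gave it a value, 16 members kept 1 sign, 14 above 0 and 2 below 0, and 4 of the 16 (Oas3, Cxcl10, Cxcl11 and Psmb9) had no value under the filter on dim genes.

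**Figure D1:**
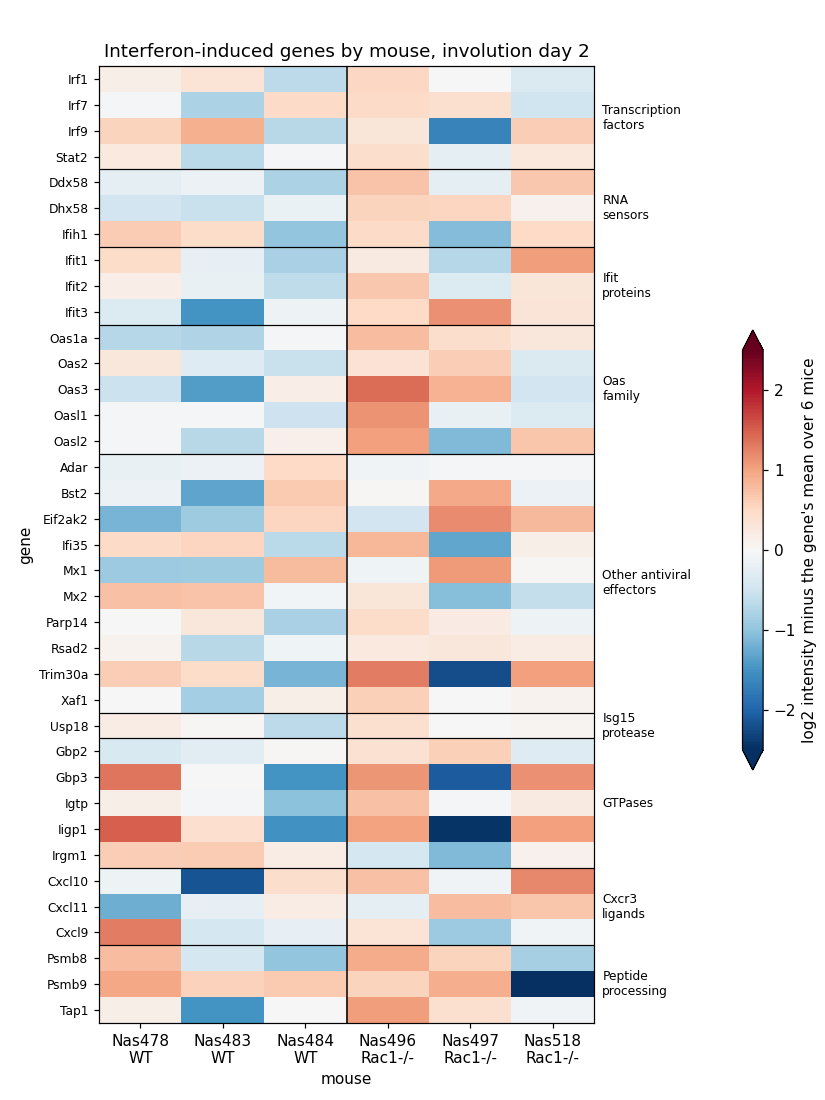
Log2 intensity of each of the 37 interferon-induced genes with a value (rows, grouped by role) in each of the 6 mice (columns, 3 WT and 3 Rac1-/-), as the difference from the mean of that gene over the mice; colours reach their limit at the ends of the scale. Nas496 is the highest of the 6 for 17 genes, and Nas484 and Nas497 are low together for a block that includes Gbp3, Iigp1 and Trim30a.

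The transcription factors of the pathway gave no separation of the genotypes. Of the 4 with a value, 3 had a log2 fold change above 0 and 1 below 0, and their median of 0.18 was -0.33 with the common median. Irf1, induced by interferon gamma and an activator of many of the other genes, read 7.97, 8.16 and 7.16 in WT mice and 8.34, 7.83 and 7.47 in Rac1-/- mice (7.76 ± 0.53 and 7.88 ± 0.44, mean log2 intensity ± SD, n = 3 each). The groups overlapped over most of their range, and the log2 fold change of 0.12 (SE 0.49) turned to -0.62 with the common median and to -0.15 with no scaling between arrays. Irf9, the DNA-binding partner of Stat2, read 8.27, 8.59 and 7.02 in WT and 8.01, 6.03 and 8.32 in Rac1-/- mice (7.96 ± 0.83 and 7.45 ± 1.24). Nas484 and Nas497 were the 2 lowest arrays for Irf9, and its log2 fold change was -0.51 (SE 0.72). Stat2, which carries the activating domain of that complex, read 7.30, 6.38 and 7.03 in WT and 7.51, 6.83 and 7.32 in Rac1-/- mice (6.90 ± 0.47 and 7.22 ± 0.35). Its log2 fold change of 0.32 (SE 0.47) was below its spread and turned to -0.026 with the common median. Irf7, the amplifier of the type I response, had a log2 fold change of 0.24 (SE 0.52).

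Among the RNA sensors, Dhx58 lay apart between the genotypes and the others overlapped, with a median of 0.78 that was 0.052 with the common median. Dhx58, the regulatory member of this helicase family, read 5.77, 5.68 and 6.08 in WT and 6.79, 6.78 and 6.34 in Rac1-/- mice (5.84 ± 0.21 and 6.64 ± 0.26). Every Rac1-/- mouse was above every WT mouse, with a log2 fold change of 0.80 (SE 0.43, 95% interval -0.18 to 1.77) and an adjusted p of 0.946 in limma. The other 2 probe sets of Dhx58 gave 0.039 and 0.74, with overlapping groups. Ddx58, which encodes the sensor RIG-I, read 7.74, 7.84 and 7.20 in WT and 8.70, 7.76 and 8.65 in Rac1-/- mice (7.59 ± 0.35 and 8.37 ± 0.53). Nas496 and Nas518 were above all WT mice and Nas497 was within them, and the log2 fold change was 0.78 (SE 0.48), with 0.32 and 0.20 at its other probe sets. Ifih1, which encodes the sensor of long double-stranded RNA MDA5, had a log2 fold change of -0.067 (SE 0.65).

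All 3 Ifit genes had a log2 fold change above 0, and Ifit3 had the highest of the 37 members on quantile-normalized values, though with the common median Ifit1 was at -0.12. Ifit3, which binds the other Ifit proteins on viral RNA, read 7.73, 6.57 and 7.95 in WT and 8.57, 9.22 and 8.39 in Rac1-/- mice (7.41 ± 0.74 and 8.73 ± 0.44). The 3 Rac1-/- mice lay above the 3 WT mice, with Nas483 the lowest and Nas497 the highest. The log2 fold change was 1.31 (SE 0.53, 95% interval 0.10 to 2.52) with an unadjusted p of 0.037 and an adjusted p of 0.946 in limma. It ranged from 0.86 without Nas483 to 1.61 without Nas484, and was 0.57 with the common median. Ifit2, which binds RNA and promotes cell death, read 6.93, 6.57 and 6.12 in WT and 7.44, 6.42 and 7.06 in Rac1-/- mice (6.54 ± 0.41 and 6.97 ± 0.52). Its groups overlapped, and the log2 fold change was 0.44 (SE 0.48). Ifit1, which recognises the cap of foreign RNA, differed by 0.37 (SE 0.59), and the printed windows of Ifit1 and Ifit3 each hold 3 matches. Ifit1 and Ifit2 shared Nas484 and Nas497 as their 2 lowest mice, whereas Nas497 was the highest mouse for Ifit3.

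The 2′-5′ oligoadenylate synthetases make the second messenger that turns on RNase L, and Oasl1 and Oasl2 are counted here with their family. All 5 members of this family on the list had a log2 fold change above 0, with a median of 0.41 that was 0.46 with the common median, and none passed the test. Without Nas496, Oasl1 turned to -0.055 and Oasl2 came to 0.0081, and without Nas484 and Nas497 Oas2 came to 0.027. Oas1a read 6.90, 6.87 and 7.57 in WT and 8.39, 8.06 and 7.89 in Rac1-/- mice (7.12 ± 0.40 and 8.11 ± 0.25). The groups did not overlap, the lowest Rac1-/- mouse being Nas518 and the highest WT mouse Nas484. The log2 fold change of Oas1a was 1.0 (SE 0.45, 95% interval -0.024 to 2.01) with an unadjusted p of 0.0544, and it was 0.46 with the common median. Oas3 was a dim gene, below the median gene, and read 3.86, 3.01 and 4.57 in WT and 5.80, 5.27 and 3.92 in Rac1-/- mice (3.81 ± 0.78 and 5.0 ± 0.97). Its groups overlapped through Nas518, and the log2 fold change of 1.18 (SE 0.64) moved to 2.24 with the common median. Oas2, Oasl1 and Oasl2 had log2 fold changes of 0.41, 0.40 and 0.41, each smaller than its SE. The Oas genes are close relatives, and cross-hybridization between them was not tested.

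**Figure D2:**
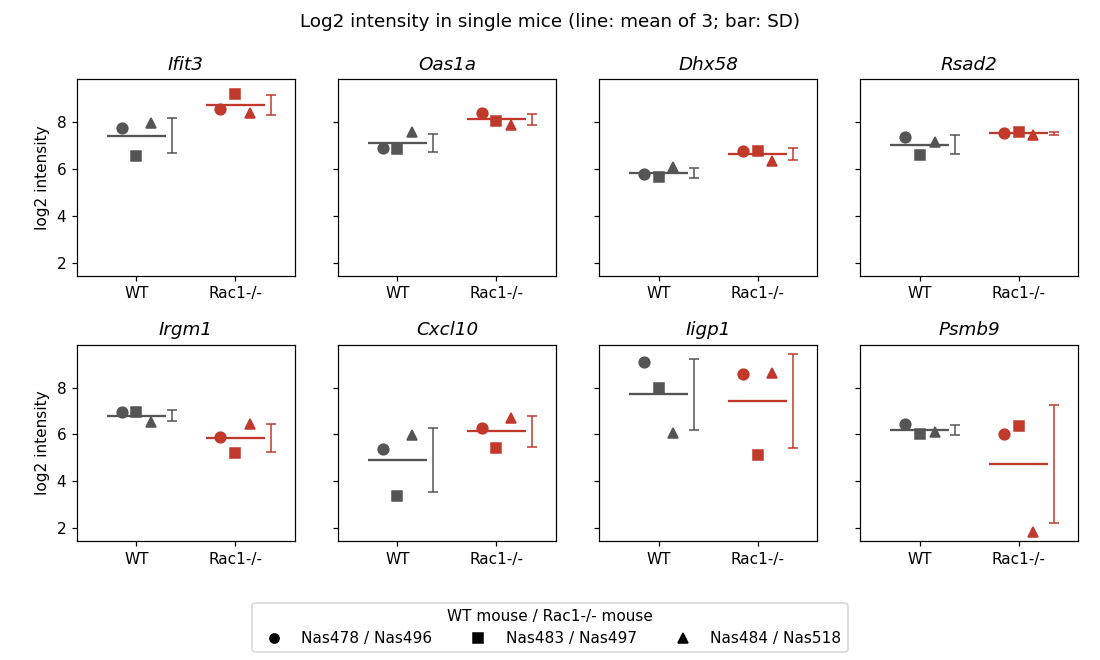
Log2 intensity of selected interferon-induced genes in each mouse, WT and Rac1-/- side by side; each point is 1 mouse, the horizontal line is the mean of 3 and the vertical bar spans 1 SD on each side; marker shapes only name the mice. Ifit3, Oas1a, Dhx58 and Rsad2 lie apart with higher values in Rac1-/- mice and Irgm1 with lower values, and Iigp1 splits within each genotype.

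The other antiviral effectors lay on both sides of 0. Of the 10 with a value, 7 had a log2 fold change above 0 and 3 below 0, and their median of 0.41 became -0.22 with the common median. Rsad2, which encodes viperin, an enzyme that makes a chain-terminating nucleotide, read 7.37, 6.58 and 7.17 in WT and 7.52, 7.56 and 7.47 in Rac1-/- mice (7.04 ± 0.41 and 7.52 ± 0.047). The Rac1-/- mice were all above the WT mice and nearly equal to each other, yet the log2 fold change of 0.47 (SE 0.44) became -0.019 with the common median, and its other probe sets gave 0.29 and 0.33 with overlapping groups. Eif2ak2, which encodes PKR, the kinase that halts translation when it binds double-stranded RNA, read 7.99, 8.26 and 9.70 in WT and 8.68, 10.34 and 9.96 in Rac1-/- mice (8.65 ± 0.92 and 9.66 ± 0.87). The groups overlapped through Nas484 and Nas496, and the log2 fold change of 1.01 (SE 0.65) was 0.0019 with the common median and -0.19 and 0.20 at the other probe sets. Mx2, a dynamin-like GTPase that restrains viruses, was below the median gene and read 3.74, 3.73 and 2.94 in WT and 3.32, 1.95 and 2.41 in Rac1-/- mice (3.47 ± 0.46 and 2.56 ± 0.70). Its log2 fold change of -0.91 (SE 0.52) turned to 0.033 with the common median and to 0.50 with no scaling between arrays. Its relative Mx1 had a log2 fold change of 0.66 (SE 0.61) on quantile-normalized values. Bst2, which encodes tetherin, the protein that holds virus particles at the cell surface, differed by 0.55 (SE 0.61). Adar, an RNA editing enzyme that damps sensing of the cell's own RNA, differed by -0.12 (SE 0.43). Usp18, the protease that removes Isg15 from proteins and restrains the type I receptor, read 6.47, 6.31 and 5.64 in WT and 6.69, 6.28 and 6.35 in Rac1-/- mice (6.14 ± 0.44 and 6.44 ± 0.22). Its groups overlapped, and the log2 fold change was 0.30 (SE 0.45).

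The guanylate-binding proteins and immunity-related GTPases, which attack the vacuoles of intracellular microbes and answer strongly to interferon gamma, split between members. Of the 5, 3 had a log2 fold change above 0 and 2 below 0, with a median of 0.11 that was -0.39 with the common median. Irgm1, the regulatory GTPase that protects the cell's own membranes, read 6.94, 6.96 and 6.52 in WT and 5.88, 5.23 and 6.44 in Rac1-/- mice (6.81 ± 0.25 and 5.85 ± 0.61). Every Rac1-/- mouse was below every WT mouse, though Nas518 came close to Nas484. The log2 fold change was -0.96 (SE 0.48, 95% interval -2.06 to 0.14) with an adjusted p of 0.946 in limma, ranged from -1.30 to -0.71 when 1 mouse was left out, and was -0.13 with the actin difference as a covariate. Igtp, a relative of Irgm1, read 7.46, 7.25 and 6.28 in WT and 8.04, 7.28 and 7.53 in Rac1-/- mice (7.0 ± 0.63 and 7.62 ± 0.39). The groups of Igtp overlapped, with a log2 fold change of 0.62 (SE 0.50) that was 0.02 with the common median and 0.27 without Nas484. Iigp1, an effector GTPase of this family, read 9.07, 8.0 and 6.06 in WT and 8.59, 5.12 and 8.61 in Rac1-/- mice (7.71 ± 1.52 and 7.44 ± 2.01). Here the spread lay within each genotype, with Nas484 and Nas497 far below the other 4 mice, and the log2 fold change was -0.27 (SE 1.08). Gbp2 and Gbp3 had log2 fold changes of 0.43 (SE 0.46) and 0.11 (SE 1.01).

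The 3 chemokines that draw activated T cells and NK cells through Cxcr3 were all below the median gene. Cxcl10 read 5.40, 3.37 and 5.96 in WT and 6.26, 5.43 and 6.72 in Rac1-/- mice (4.91 ± 1.36 and 6.14 ± 0.66). The groups overlapped through Nas497, and much of the difference came from the low value of Nas483, since the log2 fold change of 1.23 (SE 0.72) was 0.43 without that mouse. Cxcl11 read 4.37, 5.37 and 5.76 in WT and 5.36, 6.36 and 6.28 in Rac1-/- mice (5.17 ± 0.72 and 6.0 ± 0.56). Its log2 fold change was 0.83 (SE 0.54), and its other probe set gave 0.15. Cxcl9, the chemokine of the 3 most tied to interferon gamma, read 7.20, 5.49 and 5.71 in WT and 6.26, 5.02 and 5.84 in Rac1-/- mice (6.14 ± 0.93 and 5.71 ± 0.63). Its log2 fold change was -0.43 (SE 0.60), and its other probe set gave 0.36, so the probe sets did not share a direction.

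The genes of peptide processing and transport supply class I molecules with peptides. Tap1, a subunit of the peptide transporter, read 6.93, 5.30 and 6.77 in WT and 7.84, 7.18 and 6.70 in Rac1-/- mice (6.33 ± 0.90 and 7.24 ± 0.57). The groups overlapped through Nas518, and the log2 fold change of 0.91 (SE 0.59) was 0.37 without Nas483. The other probe sets of Tap1 gave 0.60, -1.19 and 1.19, the last with 2 WT arrays at the floor. Psmb9, an immunoproteasome subunit, read 6.44, 6.04 and 6.12 in WT and 6.02, 6.37 and 1.83 in Rac1-/- mice (6.20 ± 0.21 and 4.74 ± 2.53). Its log2 fold change of -1.46 (SE 1.09) rested on Nas518 alone and was -0.0022 without that mouse. Psmb8, another subunit of the immunoproteasome, differed by 0.43 (SE 0.65).

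**Figure D3:**
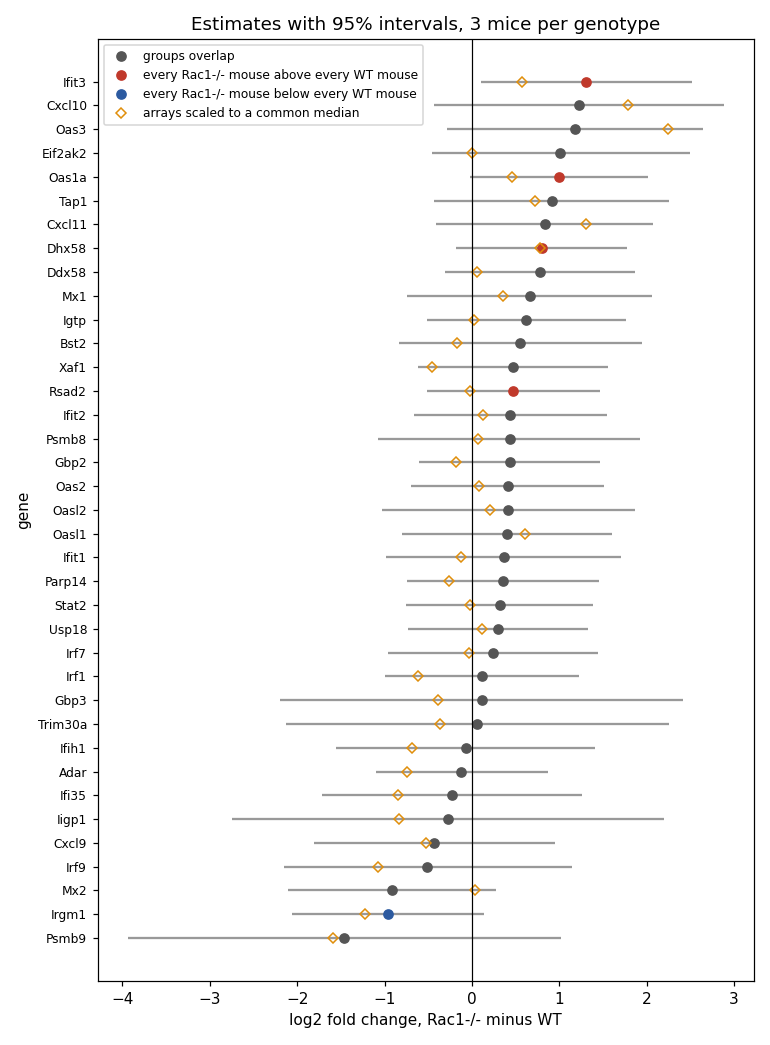
Log2 fold change, Rac1-/- minus WT, of the 37 interferon-induced genes with a value, with 95% intervals from limma, and the value of each gene when arrays were scaled to a common median. The interval of Ifit3 starts at 0.10 and those of the other members include 0.

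The level of the members differed between mice of 1 genotype. Nas496, a Rac1-/- mouse, was the highest of the 6 for 17 of the 37 members (45.9%) against 12.9% of all genes, and was the lowest for none (12.5% of all genes). In Nas496, 32 members were above their own mean, with a median difference of 0.50 on the log2 scale, where that of all genes was 0.055. The other Rac1-/- mice had medians of -0.008 (Nas497) and 0.11 (Nas518), and the WT mice had 0.14 (Nas478), -0.21 (Nas483) and -0.12 (Nas484). The WT mouse Nas478 thus lay above Nas497 and Nas518, and the groups overlapped. Without Nas496 the members' median log2 fold change was 0.20, and that of all genes was 0.082.

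**Figure D4:**
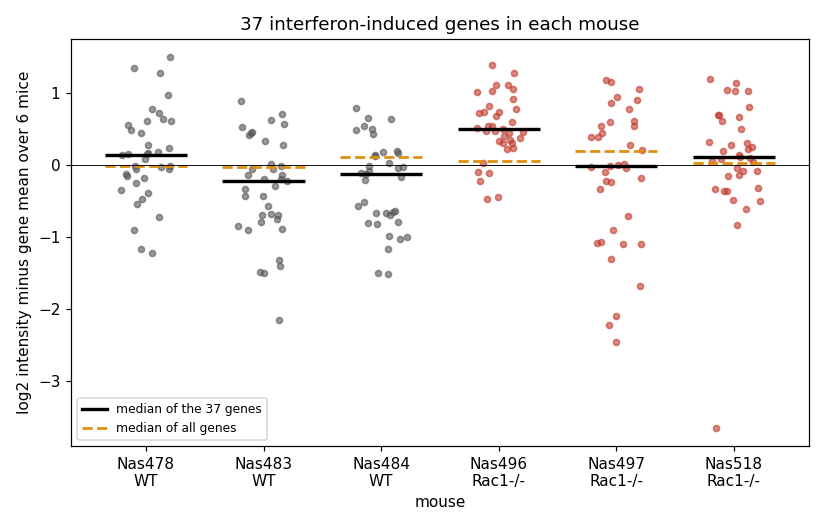
Log2 intensity minus the mean of the gene over 6 mice, for 37 interferon-induced genes in each WT and Rac1-/- mouse (points), with the median of the 37 genes (solid bar) and of all genes (dashed bar). The median of Nas496 is 0.50 and those of the other 5 mice lie between -0.21 and 0.14.

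A block of members was low in Nas484 and Nas497 alike, 1 mouse of each genotype. These 2 mice were the 2 lowest for 9 of the 37 members (24.3%, against 14.8% of all genes), namely Gbp3, Ifi35, Ifih1, Ifit1, Ifit2, Iigp1, Irf9, Trim30a and Usp18. The mean of the 2 mice minus the mean of the other 4, in log2 intensity, was -2.98 for Iigp1, -2.69 for Gbp3, -2.54 for Trim30a and -1.78 for Irf9. Other members went the opposite way. Adar, Bst2 and Mx1 had these mice as the 2 highest (8.11% of members, against 19.8% of all genes), and that difference was 1.38 for Mx1. For all members the median difference was -0.33, and for all genes it was 0.23. These are also the 2 arrays with the highest scores on the first principal component, and the part of that component in the values of these genes was not tested. With both left out, 17 members lay apart with higher values in Rac1-/- mice, where 21.8% of all genes did so, and 3 with lower values, where 17.4% did so. The members' median was then 0.52, from 2 mice in each group. An unadjusted p under 0.05 was reached by 3 members with a higher mean (4.56% of all genes) and by none with a lower mean (2.78% of all genes), and an adjusted p under 0.05 by none.

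The 37 values came from single probe sets, and 16 of the genes had others. In 11 of those 16 every probe set had 1 sign and in 5 the probe sets gave both signs, among them Eif2ak2, Cxcl9 and Tap1. Of the 24 other probe sets, 1, of Ifi35, lay apart with higher values in Rac1-/- mice and none with lower values. Of all genes, at the 1 probe set used for each, 5.41% lay apart with higher and 4.2% with lower values. Against these shares nothing is read from the counts.

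Genes upstream of the response were read from the same fit. Of 36 listed interferons, receptors and signaling genes, 29 had a value, 17 with a log2 fold change above 0 and 12 below, with a median of 0.14 that was -0.19 with the common median. None had p under 0.05. Ifna4, a type I interferon, read 2.79, 1.42 and 5.66 in WT and 5.01, 6.26 and 5.28 in Rac1-/- mice. The groups of Ifna4, a dim gene below the median gene, overlapped through Nas484, with a log2 fold change of 2.22 (SE 0.99). Mavs, the adaptor on mitochondria through which Ddx58 and Ifih1 signal, read 6.27, 6.13 and 6.68 in WT and 6.09, 4.78 and 5.18 in Rac1-/- mice. Every Rac1-/- mouse was below every WT mouse, with a log2 fold change of -1.01 (SE 0.50) and an adjusted p of 0.946 in limma. Mavs was the 1 gene of the 29 that lay apart with lower values, where 4.2% of all genes did so. With higher values 2 lay apart, where 5.41% of all genes did so. These were Irf8 with 0.28 (SE 0.41) and Tlr7 with 0.41 (SE 0.42), both named after their values were seen. Ifna1, another type I interferon, had a log2 fold change of 1.42 (SE 0.85), read at a probe set of the kind shared between transcripts. Ifnb1, the first type I interferon that most cells make, differed by 0.18 (SE 0.82), and Ifng by -0.012 (SE 0.49), the latter being 0.58 with the common median. Of 50 other interferon-stimulated genes, 42 had a value, 25 above 0 and 17 below, with a median of 0.16 that was -0.48 with the common median, -0.031 without Nas496 and -0.0049 without Nas518. Ifitm1, a membrane protein that blocks entry of viruses, was the 1 gene of this list with an unadjusted p under 0.05 in limma. Of all genes, 2.23% had such a p with a higher mean. Ifitm1 read 7.24, 6.96 and 7.54 in WT and 8.45, 8.72 and 8.09 in Rac1-/- mice. The groups of Ifitm1 did not overlap, and the log2 fold change was 1.17 (SE 0.44) with an adjusted p of 0.946 in limma. In this list of 42, 4 genes lay apart with higher values, where 5.41% of all genes did so. With lower values 2 lay apart, where 4.2% of all genes did so. Zbp1, a sensor of left-handed nucleic acid, was among the 4, with a log2 fold change of 0.92 (SE 0.49), as was Nlrc5, the activator of class I genes, with 0.79 (SE 0.49). Psmb10, an immunoproteasome subunit, was the fourth, with 0.50 (SE 0.42). The 2 with lower values were Cmpk2, a mitochondrial nucleotide kinase, with -0.61 (SE 0.42) and Ciita, the activator of class II genes, with -0.57 (SE 0.42), and these and Psmb10 were named after their values were seen.

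Markers of the cells that could respond to or release interferon were set beside these values. The 12 macrophage markers had 10 log2 fold changes above 0 and 2 below, with a median of 0.64 that was -0.11 with the common median, and a summed linear level of 3700 to 6467 in WT and 4003 to 6755 in Rac1-/- mice. The dendritic cell markers, leaving out Bst2, which is on the interferon-induced list, had 6 of 7 above 0 and summed to 548 to 602 in WT and 720 to 863 in Rac1-/- mice, without overlap. The median of this list was 0.36, with 0.54 under the common median and 0.13 without Nas484 and Nas497. Xcr1, a receptor of cross-presenting dendritic cells, had its highest log2 fold change, 1.92 (SE 0.62), with an adjusted p of 0.946 in limma. Xcr1 was named after its values were seen, and the other genes of the list ran from -0.20 (Siglech) to 0.85 (Ccr9). The T and NK cell markers had 3 of 9 above 0 and summed to 501 to 794 and 535 to 818, and the neutrophil markers had 5 of 8 above 0 and summed to 446 to 624 and 562 to 712. Markers of B and plasma cells summed to 715 to 3617 in WT and 653 to 3190 in Rac1-/- mice, those of endothelium to 612 to 1919 and 695 to 1026, and those of adipocytes to 7509 to 14747 and 7081 to 15070. The luminal epithelium and milk list had 7 of 9 below 0, with a median of -0.86 and sums of 175623 to 200049 in WT and 73950 to 112960 in Rac1-/- mice. Its sums weigh most on bright milk genes such as Csn2 (-0.86) and Csn3 (-0.31). The lowest log2 fold changes were those of the milk genes Wap (-2.77) and Lalba (-2.07). The 2 above 0 were the luminal keratins Krt8 (0.87) and Krt18 (0.90), which were -0.071 and -0.23 with the common median, and Epcam was -0.14. The myoepithelium list had 4 of 6 above 0, with a median of 0.18 that was -0.48 with the common median. Its sums were 1271 to 2053 in WT and 2146 to 3397 in Rac1-/- mice, again without overlap. These sums weigh most on the brightest genes, Acta2 (1.24) and Myh11 (0.34), while Krt5 (-0.18) and Trp63 (-0.38) were the 2 below 0. No marker was at the floor on any array, and the part of cell composition in the values of the interferon-induced genes was not tested. With the actin difference as a covariate the members' median was 0.54. In that fit 5 members had an unadjusted p under 0.05 and a higher mean (3.42% of all genes). With a lower mean 1 member did so (4.26% of all genes), and none passed at an adjusted p. The actin difference did not overlap between the genotypes, so this fit cannot set the covariate and the genotype well apart.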

How the data were processed

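Gene expression was measured on 6 one-colour Affymetrix arrays (45101 probe sets), 1 for each of 3 WT and 3 Rac1-/- mice. RNA was amplified with a kit for small amounts of degraded RNA per the study's methods, and the authors deposited 1 linear intensity per probe set, whose trimmed mean is the same on each array. The sources used here do not give the summary method or a test, and no detection call was used. Linear intensity was quantile normalized, floored at 1 and taken to log2 (limma 3.58.1 in R 4.3.3). Probe sets were named from the platform annotation (34958 with 1 symbol, 932 with several, 9211 with none). Genotypes were compared over 18194 genes by limma's moderated test (lmFit, then eBayes), adjusted after Benjamini and Hochberg, at a threshold of 0.05. The comparison was tested on simulated data of independent normal values, without the differences between arrays seen here. Members and lists were chosen with earlier results of these data known. Values in every mouse are given for the 2 members of each role with the smallest p, the member of each role with the highest mean, and members with p under 0.05 or groups that did not overlap. From the other pathway lists, genes with p under 0.05 and the 3 with the smallest p are named, with Ifnb1 and Ifng. Another gene of that rule is not analysed here. Alternatives were leaving out each mouse, leaving out Nas484 and Nas497, scaling to a common median, no scaling between arrays, the mean of all probe sets, leaving out probe sets shared between transcripts, log2(value + 16), a filter on dim genes, a trended prior, array weights, and a fit with the actin integrity measure as a covariate. No replicate number pairs the mice.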

Additional observations from a re-analysis of the deposited data

How the results depend on the processing

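The precision is limited by 3 arrays in each group, and 7 of the 37 interferon-induced genes lay below the median gene. No member passed the adjusted threshold under any alternative, while those with an unadjusted p under 0.05 in limma ranged from 0 to 6. The 6 came with the actin covariate, where 3.42% of all genes had such a p with a higher mean and 4.26% with a lower mean. The 0 came when Nas478, Nas483 or Nas497 was left out. Without Nas478, 218 of the 18194 genes had such a p with a higher mean and 185 with a lower mean. The members' median ranged from 0.20 (without Nas496) to 0.56 (without Nas497) when 1 mouse was left out, and was -0.019 with the common median. The count of members with every Rac1-/- value above every WT value, 4 in the report, was 5 to 11 when 1 mouse was left out (7.87% to 17% of all genes). It was 2 with the common median (4.5% of all genes) and 17 without Nas484 and Nas497 (21.8%). The count below, 1 in the report, was 1 to 2 when 1 mouse was left out (6.61% to 11.8% of all genes). It was 2 under no scaling (3.3% of all genes) and 3 without Nas484 and Nas497 (17.4%). Fewer mice make groups lie apart more often. Of 21 genes given in every mouse, 14 kept their sign under every alternative that gave them a value (16, or 15 for the 4 of these 14 without a value under the filter on dim genes), and 312 of 330 values had the sign of the report. The exceptions with the common median were Irf1 (-0.62), Mx2 (0.033), Rsad2 (-0.019) and Stat2 (-0.026), and with no scaling Irf1 (-0.15) and Mx2 (0.50). Irf1 was -0.072 with array weights and -0.19 without Nas484 and Nas497, where Iigp1 was 0.080. With the actin covariate Iigp1 was 2.79, Irf9 1.36 and Cxcl9 0.44. When 1 mouse was left out, Irf1 ranged from -0.19 to 0.33, Iigp1 from -1.13 to 0.97, Irf9 from -1.0 to 0.23 and Cxcl9 from -0.70 to 0.10. Apart from the counts over fewer mice, the cause was not tested. No paired analysis was possible because the labels give the mice no shared numbers.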

Other observations

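Psmb9 and Tap1 start 226 bases apart on chromosome 17 (GRCm38.p6, RefSeq), with Psmb9 at 34187330 on the minus strand and Tap1 at 34187556 on the plus strand, so they share the sequence between their starts. In Nas518, Psmb9 read 1.83 and Tap1 6.70 on the log2 scale, and Psmb9 was between 6.02 and 6.44 in the other 5 mice. Psmb9 has 1 probe set that names it alone, so the low value has no second probe set to be set against.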
